A study of Mus musculus with 16 samples.

Results

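The interferon regulatory factors are transcription factors that share a DNA-binding domain, and 8 of their genes (*Irf1*, *Irf2*, *Irf3*, *Irf4*, *Irf5*, *Irf7*, *Irf8* and *Irf9*) were followed here through early mouse blood formation with and without normal PU.1 expression. They were chosen by symbol, and each was found once among the 54347 genes of the deposited count table. RNA-seq libraries came in 4 groups of 4 replicates, namely LSKs and GMPs of WT mice and LSKs and GMPs of URE mice, and the labels do not say which LSK and GMP libraries share a mouse. URE mice lack, in all their cells and not only in blood, both copies of the upstream regulatory element of *Spi1*, the gene of the transcription factor PU.1, and WT mice were their littermates. All mice were on a C57BL/6 background and 8 to 12 weeks old. LSKs are lineage-negative bone marrow cells with Sca-1 and c-Kit on their surface, the compartment of stem cells and multipotent progenitors. GMPs, the granulocyte-monocyte progenitors, lack Sca-1 and carry c-Kit and Cd16/32. Both were sorted after enrichment of c-Kit+ cells on beads.

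Interferon regulatory factors bind repeats of a GAAA core, alone or with a partner. IRF9 acts downstream of the interferon receptors, IRF3, IRF5 and IRF7 are activated by kinases downstream of nucleic acid and Toll-like receptors, and IRF1 and IRF2 act on shared sites as an activator and an antagonist. IRF4 and IRF8 bind DNA weakly alone and are recruited by PU.1 or its relative SPIB to composite ETS-IRF elements, and IRF8 is known for directing progenitors to monocytes and dendritic cells and away from neutrophils.

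To show where such letters lie near the start sites, the 250 bases before each start were read from the RefSeq promoters of GRCm38.p6, which held all 8 members with 11 starts. They were searched on both strands for GAAA followed after any 2 bases by GAAA (an interferon-stimulated response element, ISRE), GGAA followed after any 2 bases by GAAA (a composite ETS-IRF element, EICE), TTC followed after any 3 bases by GAA (a gamma-activated site of STAT dimers, GAS) and GAGGAA (a PU.1 core). Among 32851 promoters, 2.98% held the ISRE letters, 2.3% the EICE letters, 7.02% the GAS letters and 23.3% the PU.1 core. The following were chosen because *Irf8* and *Irf5* had the lowest levels in URE relative to WT among the well-measured members, and because *Irf2* alone held ISRE and EICE letters. Capitals mark matches to the ISRE, EICE or GAS letters, all sequences read 5′ to 3′ on the plus strand, and positions are counted back from -1, the base before the start.
Irf8, chr8:120736108-120736357: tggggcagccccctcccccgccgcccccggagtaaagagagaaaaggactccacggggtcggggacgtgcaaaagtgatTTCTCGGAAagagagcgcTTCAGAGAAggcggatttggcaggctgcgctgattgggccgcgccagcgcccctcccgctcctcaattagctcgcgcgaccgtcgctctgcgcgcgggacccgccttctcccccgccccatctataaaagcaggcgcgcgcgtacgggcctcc
Irf5, chr6:29526375-29526624: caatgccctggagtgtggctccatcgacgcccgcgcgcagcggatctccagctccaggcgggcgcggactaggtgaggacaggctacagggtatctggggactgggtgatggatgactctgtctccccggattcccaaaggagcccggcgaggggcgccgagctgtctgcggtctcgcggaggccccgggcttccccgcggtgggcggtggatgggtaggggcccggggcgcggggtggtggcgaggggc
Irf2, chr8:46739495-46739744: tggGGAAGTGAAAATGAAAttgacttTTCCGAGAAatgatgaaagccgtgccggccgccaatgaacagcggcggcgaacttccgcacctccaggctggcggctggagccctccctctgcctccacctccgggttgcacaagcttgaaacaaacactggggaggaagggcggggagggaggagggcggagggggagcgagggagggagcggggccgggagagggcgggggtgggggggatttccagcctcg
The *Irf8* promoter held 2 GAS matches, at -171 to -163 and -153 to -145, and no ISRE, EICE or PU.1 core. The *Irf5* promoter held none of the 4 motifs. In the *Irf2* promoter an EICE match at -247 to -238 overlapped an ISRE match at -241 to -232, with a GAS match at -224 to -216 and a PU.1 core at -91 to -86. Of the others, *Irf1* held a GAS match at -90 to -82, *Irf4* and *Irf9* a PU.1 core, and *Irf3* and *Irf7* none. These are matches of letters in these windows only, and binding was not measured.

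*Spi1* was examined first, since it is the gene whose element was deleted. Its level was 69.5 to 165 CPM (the count scaled to library size) in WT LSKs, 1.13 to 4.44 in URE LSKs, 84.7 to 181 in WT GMPs and 15.6 to 28.6 in URE GMPs. It fell 41.8-fold in LSKs (adjusted p = 0.000266) and 6.64-fold in GMPs (adjusted p = 0.00095, and 0.0713 with replicates 2 and 3 alone). Total counts lay between 20028302 and 29128858 per library. The 8 LSK markers were found in all libraries and summed to 2235 to 3798 CPM in LSKs and to 474 to 1503 CPM in GMPs, while the 8 GMP markers summed to 1076 to 1947 CPM in LSKs and, without overlap between genotypes, to 56170 to 71710 CPM in WT and 74860 to 161700 CPM in URE GMPs. Of these 8, *Fcgr3* and *Cd63* were called higher and *Ms4a3* lower in URE GMPs, and when the replicate number entered as a block, 6 were called higher and 1 lower. In URE LSKs 2 of the 8 were called higher and 1 lower, and with the block 3 and 2. *Elane* stood there at 36.1 to 76.1 CPM in WT and 95.0 to 137 in URE, and *Prtn3* at 147 to 253 in WT and 21.2 to 59.4 in URE. Replicates 1 and 4 deviated together and apart from replicates 2 and 3, and the mix of sexes differed, with Y-linked transcripts at 213 to 359 CPM in WT replicates 1 to 3 and URE replicate 1 and at most 0.364 CPM in the others. Replicates 1 and 4 are therefore alike in this mark between genotypes, and values within each pair of replicates are given below.

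Without the PU.1 element most members were called lower in LSKs and 3 of 7 tested in GMPs, and *Irf5* and *Irf8* had the largest changes among the called members in both cell types. In LSKs, 5 of the 8 members (*Irf8*, *Irf5*, *Irf7*, *Irf9* and *Irf2*) were called lower and none higher, a call being a change of more than 1.5-fold that also passed an adjusted p of 0.05. Of the 15154 genes tested, 3.76% were called lower and 2.38% higher. In GMPs, 3 of 7 tested members (*Irf5*, *Irf9* and *Irf8*) were called lower and none higher, against 3.63% called lower and 4.67% called higher of 13829 genes. *Irf4* was tested in LSKs only because its WT libraries passed the filter on low counts, so that it had to come out lower there. Over the 7 other members the median log2 fold change was -0.99 in LSKs and -0.84 in GMPs, beside 0.00 and 0.01 over all genes tested. Without URE LSK replicate 1, URE LSK replicate 4, WT LSK replicate 2 or WT LSK replicate 3, the count in LSKs was 3, and in GMPs it was 1 without URE GMP replicate 1, URE GMP replicate 4 or WT GMP replicate 2.

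**Figure D1:**
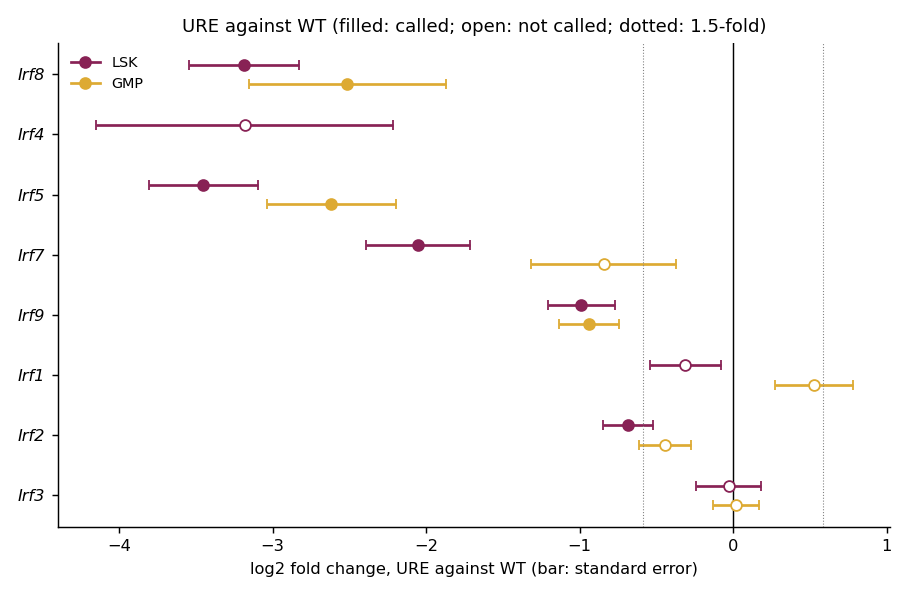
Log2 fold change of URE against WT for each factor in LSKs (purple) and GMPs (yellow), with bars for the standard error and n = 4 libraries per group. Filled points passed an adjusted p of 0.05 and 1.5-fold, and *Irf4* has no point in GMPs, where it was not tested. Among filled points *Irf8* and *Irf5* lie farthest to the left in both cell types, the open point of *Irf4* in LSKs (-3.18, SE 0.97) lies as far left, and *Irf3* lies at 0.

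*Irf8*, the PU.1 partner that directs monocyte and dendritic cell fate (chr8:120736358-120756694, plus strand, GRCm38), stood at 60.7, 53.9, 29.5 and 48.2 CPM in the 4 WT LSK libraries. In URE LSKs it stood at 4.36, 9.04, 3.66 and 4.39 CPM. All URE libraries lay below all WT libraries, and the fold change was 9.11-fold lower (log2 -3.19, SE 0.36, adjusted p = 0.000947). Within replicates 1 and 4 the log2 fold change was -3.67, and within replicates 2 and 3 it was -2.73. The call held in each of 18 alternative analyses.

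In GMPs, *Irf8* stood at 399, 237, 170 and 287 CPM in WT and at 23.2, 129, 16.03 and 27.1 CPM in URE. The groups did not overlap, but URE replicate 2 lay near the WT range and far above the other 3 URE libraries. *Irf8* was 5.71-fold lower in URE (log2 -2.51, SE 0.64, adjusted p = 0.0428), close to the threshold. Without URE replicate 2 the log2 fold change was -3.65 (SE 0.34, adjusted p = 0.00081). With the replicate number as a block it was -3.00 (adjusted p = 0.00503), and with Y-linked transcripts as a covariate -2.90 (adjusted p = 0.0896). Leaving out any of the other 7 GMP libraries ended the call, with adjusted p up to 0.127. Within replicates 1 and 4 the log2 fold change was -3.78, and within replicates 2 and 3 it was -1.54 and the call was lost (adjusted p = 0.517).

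The URE GMP library with the high *Irf8* level also carried more monocyte transcripts. The sum of 8 monocyte markers (*Ly86*, *Csf1r*, *Ccr2*, *Ly6c2*, *F13a1*, *Ms4a6c*, *Cx3cr1* and *Fcgr1*) was 1781 CPM in that library and 412, 383 and 766 CPM in URE replicates 1, 3 and 4. WT GMPs summed to 1610 to 2172 CPM. In URE replicate 2, *Ly86*, *Csf1r*, *Ccr2*, *Ms4a6c* and *Cx3cr1* each lay below all WT GMPs. They ranged from *Cx3cr1*, at 13.7 against 14.0 to 46.8 CPM, to *Ms4a6c*, at 16.8 against 199 to 411 CPM. The sum of that library came mostly from *Ly6c2*, *F13a1* and *Fcgr1*. In LSKs the same sum was 88.9 to 107 CPM in WT and 10.3 to 26.5 CPM in URE, so that it moved with genotype as *Irf8* did. None of the 8 was at 0 throughout a group, and in URE LSKs 6 of the 8 had counts in every library. In LSKs and in GMPs, 4 of the 8 were called lower and none higher, against 3.76% and 3.63% of all genes called lower. Their median log2 fold changes were -2.26 and -2.61, and with the replicate block 5 and 6 were called lower. In URE LSKs *Ly86*, *Ms4a6c* and *Cx3cr1* stood at no more than 1.16, 1.14 and 0.464 CPM. They passed the filter on low counts there through WT. URE GMP replicate 2 also stood apart from the other URE GMPs in further marker sums. GMP markers summed to 161700 CPM (74860 to 110500 in the others) and plasma cell markers to 873 CPM (266 to 458). T or NK cell markers summed to 2226 CPM (1353 to 1645) and erythroid markers to 55.6 CPM (230 to 478). Nearly all of the T or NK cell sum was *Nkg7*, at 2225 CPM in that library and 1348 to 1644 CPM in the others. *Nkg7* also stood at 562 to 975 CPM in WT GMPs, so the sum is a statement on this gene and not on T or NK cells. The part of these markers in the *Irf8* difference was not tested, and in bulk libraries fewer cells of a type cannot be told apart from less RNA per cell.

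**Figure D2:**
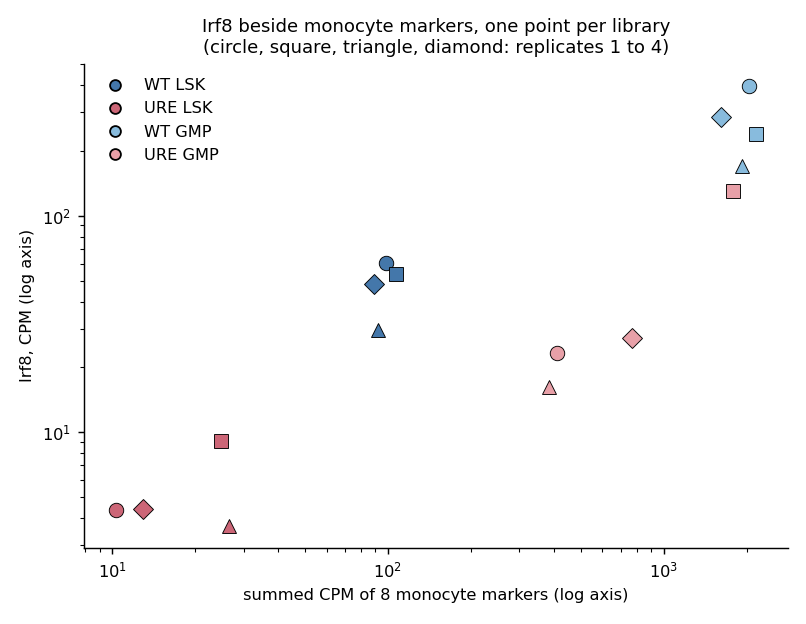
Level of *Irf8* (CPM, log axis) against the summed level of 8 monocyte markers (CPM, log axis), with 1 point for each of the 16 libraries. URE GMP replicate 2 (pale red square) sits at 129 CPM and 1781 CPM, beside the WT GMPs, while the other URE GMPs lie at 16.03 to 27.1 CPM. Its sum came mostly from *Ly6c2*, *F13a1* and *Fcgr1*, as the other markers each lay below all WT GMPs.

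*Irf4*, the other PU.1 partner and a factor of lymphocytes and dendritic cells (chr13:30749226-30766976, plus strand), was close to the detection limit throughout. It gave 21, 22, 51 and 16 counts in WT LSKs and 0, 9, 0 and 3 counts in URE LSKs. The levels of 0.644 to 1.99 CPM and 0 to 0.298 CPM did not overlap. Since no URE library reached the minimum of the filter, the log2 fold change of -3.18 (SE 0.97) is given as a description, without a test. In GMPs it gave 1 count in 1 WT library and 0 in the 7 others. The 0 counts over the 4 URE GMP libraries allow a level of up to 0.0388 CPM, from a floor of 3 counts over the group that covers counting error only, and *Irf4* was not tested between genotypes in GMPs.

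*Irf5*, which acts downstream of Toll-like receptors and drives inflammatory genes in macrophages (chr6:29526625-29541871, plus strand), was also far lower in URE in both cell types. In LSKs it stood at 40.4, 20.3, 15.3 and 28.2 CPM in WT and at 1.95, 3.18, 2.15 and 2.42 CPM in URE. In GMPs it stood at 24.8, 11.4, 6.54 and 15.4 CPM in WT and at 1.88, 1.98, 3.12 and 2.47 CPM in URE. The URE libraries thus shared a level of about the same size in both cell types, below all WT libraries. *Irf5* was 10.9-fold lower in LSKs (log2 -3.45, SE 0.36, adjusted p = 0.000639) and 6.14-fold lower in GMPs (log2 -2.62, SE 0.42, adjusted p = 0.00537). Within replicates 1 and 4 the log2 fold changes were -4.00 in LSKs and -3.22 in GMPs, and within replicates 2 and 3 they were -2.76 and -1.82. The call held in all 18 alternatives in LSKs and in 17 of 18 in GMPs, the exception being replicates 2 and 3 alone (adjusted p = 0.226).

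*Irf7*, which interferon induces and which drives type I interferon production (chr7:141262706-141266481, minus strand), was called lower in LSKs. It stood at 116, 80.8, 39.1 and 90.0 CPM in WT LSKs and at 25.4, 16.3, 14.0 and 24.5 CPM in URE LSKs, without overlap. The difference was 4.15-fold (log2 -2.05, SE 0.34, adjusted p = 0.00677), with -2.08 within replicates 1 and 4 and -2.01 within replicates 2 and 3. GMPs of both genotypes lay much lower, at 16.1, 13.2, 3.81 and 14.7 CPM in WT and at 8.96, 2.97, 6.91 and 7.59 CPM in URE. These groups overlapped, and the log2 fold change of -0.84 (SE 0.47) did not pass (adjusted p = 0.377).

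*Irf9*, the DNA-binding part of the complex that type I interferon activates (chr14:55603571-55610030, plus strand), was about equally lower in both cell types. WT LSKs stood at 160, 235, 173 and 153 CPM, and URE LSKs at 91.1, 125, 82.2 and 70.9 CPM. WT GMPs stood at 63.1, 92.4, 66.2 and 75.9 CPM, and URE GMPs at 37.9, 38.7, 47.7 and 31.4 CPM. Genotypes did not overlap in either cell type, and *Irf9* was 1.99-fold lower in LSKs (log2 -0.99, SE 0.22, adjusted p = 0.0267) and 1.92-fold lower in GMPs (log2 -0.94, SE 0.20, adjusted p = 0.0173). The log2 fold change in LSKs and GMPs was -0.98 and -1.02 within replicates 1 and 4, and -0.998 and -0.892 within replicates 2 and 3, where both calls were lost (adjusted p = 0.168 and 0.259). The calls were also lost with Y-linked transcripts as a covariate, at adjusted p = 0.163 in LSKs and 0.0736 in GMPs. They were also lost on leaving out 5 of 8 LSK libraries or 4 of 8 GMP libraries, with adjusted p up to 0.0965 and 0.0608.

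*Irf2*, the antagonist of IRF1 on shared sites (chr8:46739732-46847458, plus strand), showed a smaller difference with little spread. In LSKs it stood at 217, 199, 214 and 259 CPM in WT and at 122, 140, 172 and 131 CPM in URE, 1.61-fold lower (log2 -0.68, SE 0.16, adjusted p = 0.0389). In GMPs it stood at 81.1, 78.8, 89.0 and 79.3 CPM in WT and at 59.4, 56.1, 51.8 and 75.8 CPM in URE, with a log2 fold change of -0.44 (SE 0.17) that did not pass (adjusted p = 0.166). Genotypes did not overlap in either cell type. The LSK call lay just past the 1.5-fold threshold and was lost on leaving out any of 7 libraries, the exception being URE replicate 3. With Y-linked transcripts as a covariate the log2 fold change was -0.82 (adjusted p = 0.0548), and within replicates 1 and 4 and replicates 2 and 3 it was -0.94 and -0.44. The call was also lost with replicates 2 and 3 alone (adjusted p = 0.828) and without a filter on low counts (adjusted p = 0.0684).

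*Irf1*, the activator on the same sites (chr11:53770014-53778374, plus strand), did not pass in either cell type. WT LSKs stood at 114, 109, 54.2 and 87.0 CPM and URE LSKs at 86.3, 75.6, 67.5 and 69.8 CPM, and the groups overlapped (log2 fold change -0.31, SE 0.23, adjusted p = 0.668). WT GMPs stood at 46.0, 38.6, 26.7 and 34.0 CPM and URE GMPs at 52.2, 51.3, 34.4 and 72.6 CPM (log2 fold change 0.52, SE 0.25, adjusted p = 0.293). In GMPs it was the only tested member with a log2 fold change above 0.1, and each URE library lay above the WT library of the same number.

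*Irf3*, which is made constantly and activated by phosphorylation (chr7:44997648-45002848, plus strand), was the steadiest member. Its libraries ranged from 65.1 to 98.1 CPM in WT LSKs, from 66.2 to 98.2 in URE LSKs, from 71.5 to 91.1 in WT GMPs and from 76.3 to 90.7 in URE GMPs. All 4 ranges overlapped. The log2 fold change was -0.03 (SE 0.21, adjusted p = 0.984) in LSKs and 0.02 (SE 0.15, adjusted p = 0.971) in GMPs.

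**Figure D3:**
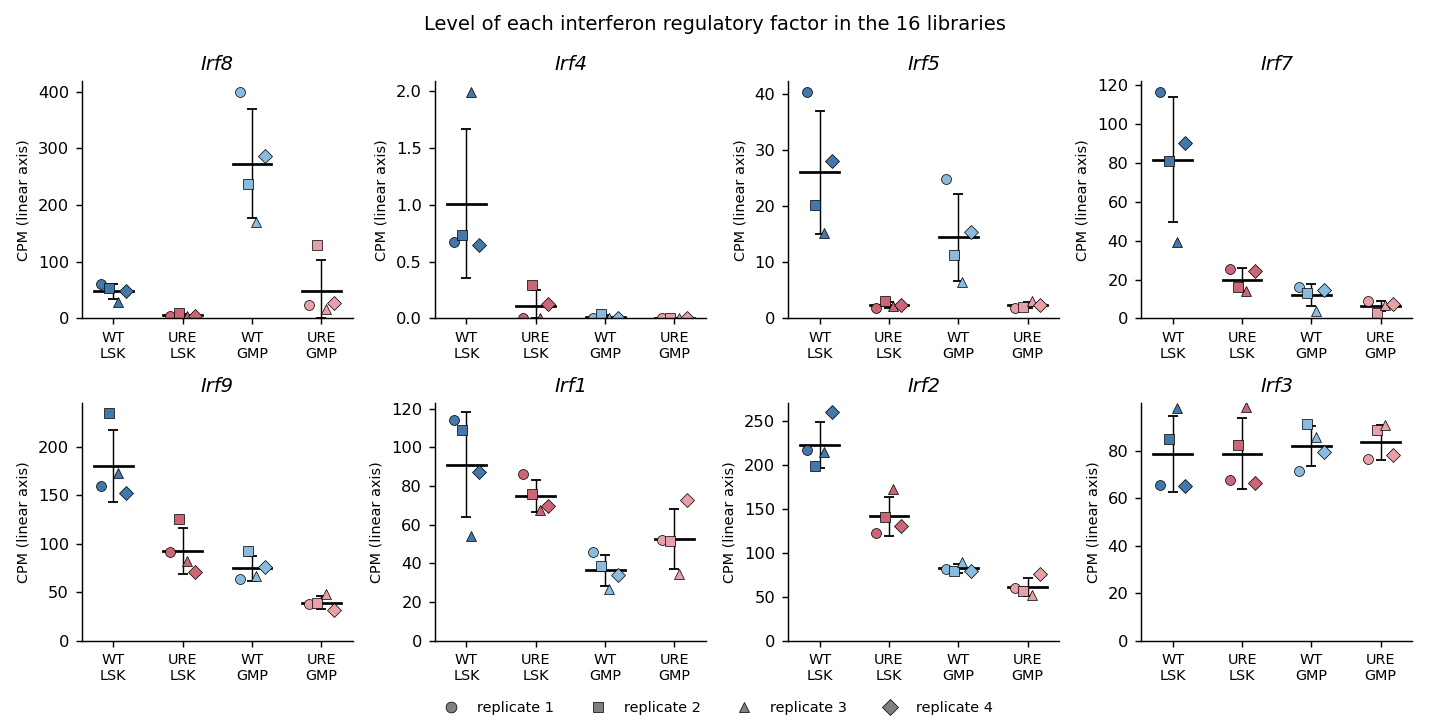
Level (CPM, linear axis from 0, its scale differing between panels) of each factor in the 16 libraries, with a bar for the mean of 4 libraries, error bars for the SD cut at 0, and a marker for each replicate number. WT GMPs stand out in *Irf8*, WT LSKs in *Irf4*, *Irf7*, *Irf9* and *Irf2*, both WT groups in *Irf5*, and no group in *Irf3* or *Irf1*.

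Leaving *Irf4* aside, 5 of 7 members in LSKs (*Irf2*, *Irf5*, *Irf7*, *Irf8* and *Irf9*) had every URE library below every WT library, a pattern shown by 6.9% of genes tested. In GMPs the pattern held for 4 of 7 (*Irf2*, *Irf5*, *Irf8* and *Irf9*), against 6.98% of genes. Whether the genotype difference itself differed between LSKs and GMPs was asked of the 16 libraries together, with genotype by cell type as the term tested. No member passed, while 1.22% of 15935 genes did. DESeq2 also passed none, and at an unadjusted p under 0.05 edgeR passed 1, *Irf1* (interaction log2 0.82, SE 0.36, unadjusted p = 0.037, adjusted p = 0.378). The interaction was 1.17 (SE 0.61, adjusted p = 0.495) for *Irf7*, 0.80 (SE 0.53, adjusted p = 0.657) for *Irf5* and 0.68 (SE 0.76, adjusted p = 0.87) for *Irf8*, which changed to -0.47 without URE GMP replicate 2. A difference between LSKs and GMPs was therefore not shown for the members called in LSKs alone. For *Spi1* itself the interaction passed (2.64, SE 0.52, adjusted p = 0.0218), its fall being smaller in GMPs. That call was lost without WT LSK replicate 4 (2.47, adjusted p = 0.0503) and with replicates 2 and 3 alone (2.30, adjusted p = 0.681).

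From LSK to GMP, *Irf8* rose in both genotypes, and *Irf2*, *Irf7* and *Irf9* fell in both. These comparisons share their libraries with those between genotypes. *Irf4* passed the filter in WT only through its LSK libraries, so that it could only come out lower in GMPs, and is left out of the counts that follow. In WT, 1 of the 7 other members was called higher in GMPs, against 11.5% of 14767 genes, and 4 were called lower (*Irf1*, *Irf2*, *Irf7* and *Irf9*), against 15.8% of genes. In URE, 1 of 7 tested members was called higher, against 9.2% of 14395 genes, and 3 were called lower (*Irf2*, *Irf7* and *Irf9*), against 12.6%. The median log2 fold change over these members was -1.29 in WT and -0.55 in URE, beside -0.09 over all genes in both. In WT, the GMP libraries lay wholly below the LSK libraries for 4 members (17.6% of genes) and wholly above for 1 (13.7%), and in URE for 3 (14.3%) and 1 (12.3%).

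*Irf8* was 5.64-fold higher in WT GMPs than in WT LSKs (log2 2.495, SE 0.31, adjusted p = 0.000545), and no GMP library reached down to the LSKs. In URE it was 8.79-fold higher (log2 3.14, SE 0.68, adjusted p = 0.0101), a call lost with replicates 2 and 3 alone (3.49, adjusted p = 0.0565), and 2.02 on the log2 scale without URE GMP replicate 2 (adjusted p = 0.00795). The lowest URE GMP library held 16.03 CPM and the highest URE LSK library 9.04 CPM. Mean levels were 48.1 ± 13.4 CPM in WT LSKs, 5.36 ± 2.47 in URE LSKs, 273 ± 96.4 in WT GMPs and 48.9 ± 53.8 in URE GMPs (SD, n = 4). URE GMPs thus overlapped with WT LSKs, at 16.03 to 129 CPM against 29.5 to 60.7 CPM.

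*Irf7*, *Irf9* and *Irf2* were called lower in GMPs than in LSKs in both genotypes. *Irf7* was 6.89-fold lower in WT GMPs (log2 -2.78, SE 0.48, adjusted p = 0.00269) and 3.11-fold lower in URE GMPs (log2 -1.64, SE 0.37, adjusted p = 0.0128). *Irf9* was 2.44-fold lower in WT and 2.43-fold lower in URE (log2 -1.29 and -1.28, adjusted p = 0.00152 and 0.00315). *Irf2* was 2.73-fold and 2.40-fold lower (log2 -1.45 and -1.26, adjusted p = 0.000171 and 0.00146), with 78.8 to 89.0 CPM in WT GMPs under the 199 to 259 CPM of WT LSKs. In each of these the GMP and LSK libraries of a genotype did not overlap. With replicates 2 and 3 alone the URE calls of *Irf7* (-1.59, adjusted p = 0.163) and *Irf9* (-1.25, adjusted p = 0.0673) were lost.

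*Irf1* was 2.52-fold lower in WT GMPs (log2 -1.34, SE 0.27, adjusted p = 0.00563), a call lost with replicates 2 and 3 alone (-1.24, adjusted p = 0.0724). In URE its log2 fold change was -0.55 (SE 0.22, adjusted p = 0.11), and it was called only with the replicate number as a block (-0.59, adjusted p = 0.0294). *Irf5* had a log2 fold change of -0.85 (SE 0.43, adjusted p = 0.175) in WT, called only with the block (-0.91, adjusted p = 0.000508), and of -0.07 (SE 0.34, adjusted p = 0.902) in URE, where both cell types held 1.88 to 3.18 CPM. *Irf4* gave 110 counts over the WT LSKs and 1 over the WT GMPs, and is given without a test. In URE, 12 counts over the LSKs and 0 over the GMPs make the level in LSKs at least 2.98-fold higher, against a floor of 3 counts over the group. *Irf3* had log2 fold changes of 0.05 in WT and 0.04 in URE, and neither passed.

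**Figure D4:**
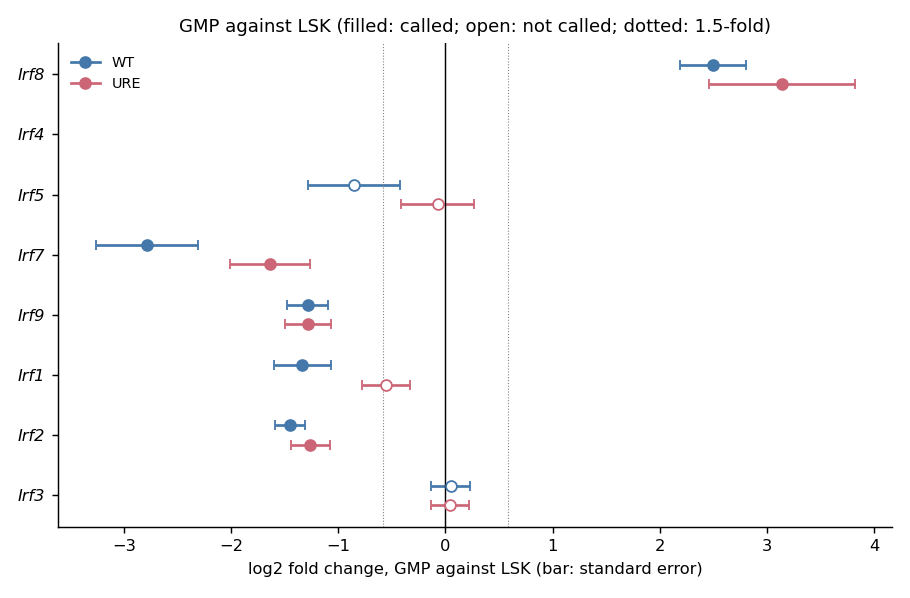
Log2 fold change of GMPs against LSKs for each factor in WT (blue) and URE (red), with bars for the standard error and n = 4 libraries per group. Filled points passed an adjusted p of 0.05 and 1.5-fold, and *Irf4* is not drawn because its GMP groups hold 1 count and 0 counts. *Irf8* is the only factor to the right of the dotted 1.5-fold line.

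To compare the members with each other, levels were divided by the length of the gene's exons. The 8 members summed to 147 ± 17.0 CPM per kb in WT LSKs, 84.8 ± 7.23 in URE LSKs, 105 ± 16.8 in WT GMPs and 62.4 ± 8.01 in URE GMPs (SD, n = 4). The libraries of the genotypes did not overlap, with 123 to 160 against 75.6 to 91.9 CPM per kb in LSKs and 83.3 to 124 against 56.0 to 73.2 CPM per kb in GMPs. In WT LSKs *Irf9* led with a mean share of 22.9%, followed by *Irf2* with 20.7%, and *Irf8* held 4.57%. *Irf7* lay above *Irf9* in replicate 1 (30.8 against 29.7 CPM per kb), and *Irf2* did in replicate 4 (35.1 against 28.3). In WT GMPs *Irf8* led with a mean share of 36.2% (28.9% to 45.4% in the 4 libraries), followed by *Irf3* with 23.4%. In replicate 3 *Irf3* lay slightly above *Irf8*, at 24.9 against 24.1 CPM per kb.

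In URE the order by length-scaled level changed. *Irf3* led in URE LSKs with a mean share of 26.8% and in URE GMPs with 39.2%. Its own level was alike in WT and URE, at 22.79 and 22.83 CPM per kb in LSKs and 23.79 and 24.24 in GMPs, while the sum was lower in URE. In URE LSK replicate 1, *Irf1* lay above *Irf3*, at 21.7 against 19.7 CPM per kb. *Irf8* held 0.887% in URE LSKs and 10.2% in URE GMPs, the latter from 4.06% to the 25.0% of replicate 2. In WT LSKs the neighbours in this order overlapped in part, as *Irf1* and *Irf3* at 22.9 ± 6.84 and 22.8 ± 4.64 CPM per kb (SD, n = 4). *Irf4* was lowest in all 4 groups, at 0.15% of the sum in WT LSKs and less elsewhere. The shares depend on exon lengths summed over annotated transcripts, which need not be the lengths of the transcripts in these cells.

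**Figure D5:**
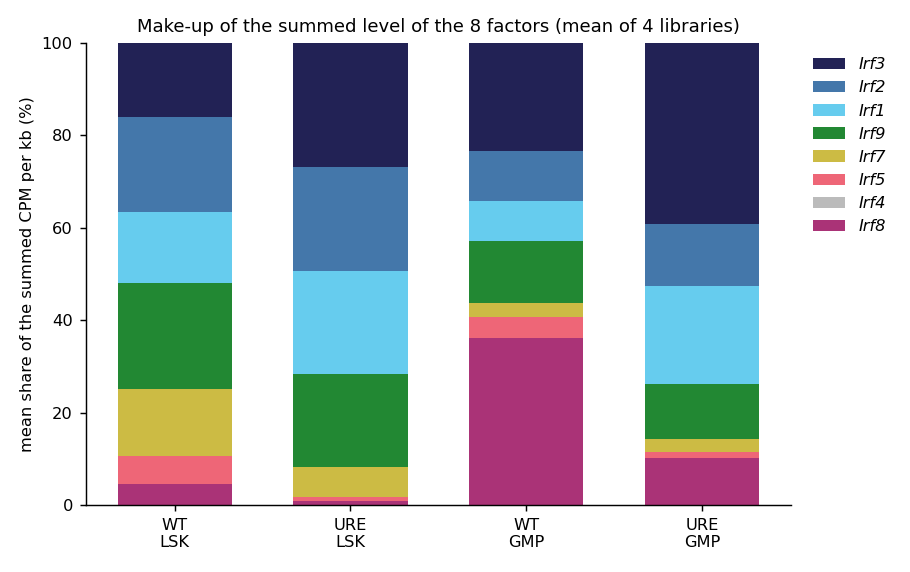
Mean share (%) of each factor in the summed CPM per kb of the 8 factors, by group, with n = 4 libraries per group. *Irf8* makes up 36.2% in WT GMPs and 10.2% in URE GMPs, and *Irf3* makes up 39.2% in URE GMPs, where the sum was lower than in WT GMPs.

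For each member, the 3 genes with the most similar levels were found by the root mean square difference of log2 CPM, each gene centred on its own mean, over the 16 libraries, among 9072 genes with a mean log2 CPM of at least 3. The nearest genes to *Irf8* were *Pld4* (0.64), *Csf1r* (0.80) and *Tyrobp* (0.81), against a value of 2.13 for a flat gene. *Pld4* averaged 23.5, 2.08, 67.7 and 17.8 CPM in WT LSKs, URE LSKs, WT GMPs and URE GMPs. *Csf1r*, the receptor of macrophage colony-stimulating factor, averaged 20.1, 4.4, 136 and 12.7 CPM, and *Tyrobp*, an adaptor of myeloid receptors, 24.9, 3.09, 117 and 28.3 CPM. For *Irf9* the nearest were *Gm12250* (0.22), *Xaf1* (0.25) and *Ifitm3* (0.32), for *Irf1* *Gprasp1* (0.15), *Parp9* (0.23) and *Inpp1* (0.23), and for *Irf7* *Ddah2* (0.49), *Jup* (0.51) and *Abi3* (0.56). *Irf5* lay nearest to *Adgrl4* (0.58), *Ndrg1* (0.59) and *Cep85* (0.60), *Irf2* to *Neurl3* (0.25), *Fchsd2* (0.26) and *Atat1* (0.28), and *Irf3* to *Jkamp* (0.11), *Cfap20* (0.12) and *Ginm1* (0.13). For *Irf4*, with its low counts, the nearest was *Tob1* at 0.74. These are descriptions over libraries that share genotype, cell type and replicate pattern.

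The libraries are unstranded, so that reads from exons shared with a neighbour cannot be told apart by strand. *Irf5* shares 411 exonic bases with *Tnpo3* on the other strand, *Irf1* 135 with *Gm17334*, *Irf3* 88 with *Bcl2l12* and *Irf7* 45 with *Phrf1*, while *Irf9* shares 123 with *Rnf31* on the same strand. None of the 5 neighbours was called between genotypes. *Tnpo3* averaged 168 and 161 CPM in WT and URE LSKs and 182 and 207 CPM in WT and URE GMPs, where *Irf5* was 10.9-fold and 6.14-fold lower in URE.

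Genes around the members were counted from lists of the pathway, and each count stands beside the 3.76% of all genes called lower and 2.38% called higher in LSKs, and the 3.63% and 4.67% in GMPs. Genes that passed the filter through 1 genotype alone, with no library of the other at its minimum of about 10 counts, could come out in 1 direction only. They are left out of the counts and medians, and their levels are given as a description. Genes with all libraries of 1 genotype but only some of the other at that minimum stayed in the counts. These too passed through the genotype where they are high, so a call in that direction was partly set by the filter. Of the ETS and BATF partners, which join IRF4 and IRF8 on DNA, 3 of 7 tested were called lower in LSKs (*Spic*, *Batf2* and *Spi1*, whose own element is deleted) and none higher. In GMPs *Spi1* alone was called of 6, and with the block 1 was also called higher. *Batf2* averaged 5.62 and 1.89 CPM in WT and URE LSKs (log2 fold change -1.60, adjusted p = 0.0496), and 1.40 and 0.249 CPM in GMPs, where it passed through WT alone. *Spic* averaged 19.5 and 8.57 CPM in LSKs (-1.22, adjusted p = 0.0338). The list's median log2 fold change was -0.15 in LSKs and -0.12 in GMPs, beside 0.00 and 0.01 over all genes.

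Upstream of IRF9, 3 of 15 tested interferon receptor and JAK-STAT genes were called lower in LSKs, *Ifnar2* and *Ifngr2* among them, and none higher, with a median of -0.24. With the replicate number as a block, 4 were called lower and 1 higher. *Ifnar2*, a chain of the type I interferon receptor, stood at 85.4 to 115 CPM in WT LSKs and at 56.0 to 58.9 in URE LSKs (log2 fold change -0.87, adjusted p = 0.00783). In GMPs it stood at 89.6 to 113 CPM in WT and 43.0 to 63.1 in URE (-0.95, adjusted p = 0.00981). *Ifngr2*, a chain of the interferon gamma receptor, was lower in both (-1.53 and -1.96, adjusted p = 0.0406 and 0.0212), while *Ifngr1*, its partner chain, was higher in GMPs at 1107 to 1650 CPM in URE against 518 to 666 in WT (1.25, adjusted p = 0.00206). *Il10rb* was also called lower in GMPs (-1.15), so that 3 of 14 were called lower there and 1 higher (2 higher with the block), with a median of 0.01, and 1 of 14 higher is near the share of all genes.

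Upstream of IRF3, IRF5 and IRF7, 4 of 21 tested sensors, adaptors and kinases were called lower in LSKs (*Ifih1*, *Dhx58*, *Tlr4* and *Unc93b1*) and 2 of 20 in GMPs (*Slc15a4* and *Unc93b1*), with none higher and medians of -0.37 and -0.09. With the block, 4 were called lower and 2 higher in GMPs. *Unc93b1*, the chaperone of endosomal Toll-like receptors, was called in both cell types. It stood at 93.5 to 192 CPM in WT and 49.8 to 72.5 in URE LSKs (-1.22, adjusted p = 0.0116), and at 136 to 330 and 35.0 to 82.0 CPM in GMPs (-2.13, adjusted p = 0.00381). *Dhx58* and *Tlr4* had log2 fold changes of -1.54 and -1.51 in LSKs. *Tlr3* passed in GMPs through WT alone, at 0.57 to 2.95 CPM in WT and at most 0.209 CPM in URE. Of 21 interferon genes, 1 passed the filter in LSKs and 0 in GMPs, and none was called.

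Downstream, more interferon-stimulated genes were called lower in LSKs than in GMPs. Of the 40 tested, *Oas1g*, *Oas2* and *Ifi205* passed through WT alone in both cell types. Of the 37 others, 16 were called lower and none higher in LSKs, with a median log2 fold change of -1.08. In GMPs 3 were called lower and 1 higher, with a median of -0.53. The 3 lower in GMPs (*Oas1a*, *Ifi27l2a* and *Mx1*) were among the 16 of LSKs, and *Ifi204* was the one called higher in GMPs (1.19, adjusted p = 0.0466). In URE GMPs *Ifi27l2a* and *Mx1* stood at 0.337 to 0.717 and 0.145 to 0.563 CPM. Only some of these libraries reached the minimum, so both genes passed there through WT. The interaction test passed none of the 40 with edgeR (9 at an unadjusted p under 0.05), 4 with DESeq2 and 5 with the replicate block, so for most of these genes a difference in the change between LSKs and GMPs was not shown. With the block, 22 of the 37 were called lower in LSKs, and in GMPs 9 were called lower and 2 higher.

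*Oas1a*, *Oas1g* and *Oas2* are of the family of sensors of double-stranded RNA. *Oas1a* stood at 54.9 to 82.5 CPM in WT and 7.44 to 13.5 in URE LSKs (-2.82, adjusted p = 0.000239), and at 35.6 to 67.8 and 1.98 to 3.94 CPM in GMPs (-4.19, adjusted p = 0.000283). *Oas2* stood at 10.6 to 18.6 CPM in WT LSKs and at most 0.166 CPM in URE LSKs. In GMPs it gave 118 counts over the WT and 3 over the URE libraries. *Oas1g* stood at 8.66 to 15.3 CPM in WT and at most 0.273 CPM in URE LSKs, and at 2.49 to 8.19 and at most 0.41 CPM in GMPs. *Ifi205* gave 288 counts in WT LSKs and 1 in URE LSKs, and 371 and 0 in GMPs. *Ifit3*, by contrast, stood at 24.0 to 40.6 CPM in WT and 1.64 to 4.04 CPM in URE LSKs (-3.47, adjusted p = 0.000411) and did not pass in GMPs (-1.13, adjusted p = 0.238).

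Of the genes with a described PU.1-IRF element or a dependence on IRF8, 3 of 10 tested were called lower in LSKs, *Csf1r* and *Ly86* among them, and 2 of 9 in GMPs (*Csf1r* and *Ly86*), with none higher and medians of -0.88 and -0.71. With the block, 4 were called lower in GMPs. *Csf1r* and *Ly86* are also among the monocyte markers above. In URE LSKs *Ly86* stood at 0.126 to 1.16 CPM, with only some libraries at the minimum, and passed there through WT. *Klf4*, a factor of monocytes, averaged 1.15 and 0.157 CPM in WT and URE GMPs and passed there through WT alone. As with *Irf8*, URE GMP replicate 2 was the highest of its group in *Csf1r* (26.3 CPM against 7.18 to 9.79) and *Ly86* (18.4 against 0.819 to 2.10). Of 8 genes for turnover and inhibition of these factors, *Ptpn6*, a phosphatase of interferon signalling, was the only one called, lower in LSKs (-1.27, adjusted p = 0.00145) and in GMPs (-0.66, adjusted p = 0.0432). With the block, 2 were called lower in LSKs, and 2 lower and 1 higher in GMPs.

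Of other cells that use these factors, classical dendritic cell markers were called lower for 1 of 6 tested in LSKs (2 with the block) and 3 of 5 in GMPs, and for B and plasma cells at most 1 marker of each was called. The 9 markers of classical dendritic cells, which need IRF8 or IRF4, summed to 239 to 620 CPM in WT and 84.3 to 280 in URE LSKs, and to 206 to 306 and 18.2 to 51.3 CPM in GMPs, with *Cd209a* at 0 in URE GMPs. Most of this sum was the MHC class II genes *Cd74*, *H2-Ab1* and *H2-Aa*, which were the 3 called in GMPs, with *Cd74* the one called in LSKs, while *Itgax* and *Zbtb46* were not called in either. *Clec9a* passed in GMPs through WT alone, at 1.08 to 1.58 CPM against at most 0.205 CPM in URE. The 8 plasmacytoid dendritic cell markers summed to 257 to 383 and 204 to 367 CPM in LSKs and to 169 to 227 and 150 to 188 CPM in GMPs, with *Siglech* and *Spib* at 0 in URE LSKs, *Spib* and *Pacsin1* at 0 in URE GMPs and *Klk1* at 0 in all groups. These sums overlapped between genotypes in both cell types, and none of 4 markers tested in LSKs and 3 in GMPs was called (1 lower in each with the block). *Cox6a2* passed in LSKs through WT alone, at 1.006 to 10.3 CPM against at most 0.265 CPM in URE. The 8 B cell markers summed to 58.5 to 85.1 and 25.2 to 37.0 CPM in LSKs, with *Pax5* and *Igll1* among those at 0 in URE. In GMPs they summed to 63.3 to 91.0 CPM in WT, with *Pax5* at 0, and to 11.9 to 27.3 CPM in URE, with *Pax5* among those at 0. Most of the B cell sum was *Cd79b*, the one marker called lower, of 4 tested in LSKs and 3 in GMPs (57.2 to 81.2 against 23.6 to 34.8 CPM in LSKs and 61.1 to 88.6 against 8.14 to 23.4 CPM in GMPs), while *Vpreb1* and *Igll1* had log2 fold changes of 1.006 and 0.43 in GMPs and were not called. Plasma cell markers summed to 293 to 439 CPM in WT and 174 to 568 in URE LSKs, and to 156 to 348 and 266 to 873 CPM in GMPs, with *Mzb1* at 0 in WT GMPs, and *Sdc1* alone was called (log2 -3.25 in LSKs), of 5 tested in LSKs and 2 in GMPs. With the block, 1 plasma cell marker was called higher in GMPs. The 8 neutrophil markers summed higher in URE, with 37.8 to 180 CPM in WT and 178 to 361 in URE LSKs, which overlapped slightly, and 67.6 to 171 and 227 to 1011 CPM in GMPs. *Ngp* was called higher in both cell types, the only call of 7 tested in LSKs, and of 7 in GMPs *Mmp8* was also called, lower (4.82 to 9.67 CPM in WT and 0.338 to 2.09 CPM in URE). With the block 4 were called higher in each cell type, and *Mmp8* stayed lower, though only some URE GMP libraries held it at the minimum of the filter. *Retnlg* passed in GMPs through URE alone, at 0.939 to 1.13 CPM against at most 0.195 CPM in WT. *Mcpt8* and *Cpa3*, of 5 basophil or mast cell markers tested, were called higher in LSKs, and in GMPs, of 6, *Mcpt8* was higher and *Prss34* and *Ms4a2* lower. Of 2 T or NK cell markers tested, *Nkg7* was called higher in GMPs (562 to 975 CPM in WT and 1348 to 2225 CPM in URE), with *Cd3e* at 0 in both GMP groups. Of 8 erythroid markers tested in LSKs 1 was called lower (2 with the block), and of 5 megakaryocyte markers 1 was called higher, with none of either called in GMPs. *Itga2b*, a megakaryocyte marker, stood at 26.2 to 48.4 CPM in WT and 49.5 to 233 CPM in URE LSKs. The part of all these markers in the differences of the members was not tested.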

How the data were processed

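The 16 bulk polyA RNA-seq libraries of sorted LSKs and GMPs, 4 per group, used at most 10 ng of RNA and an unstranded low-input kit without molecular identifiers, so statements on depth cover counting error only. The authors quantified the paired-end reads with Salmon on GRCm38 (both named in the submitters' processing notes), summed transcripts to genes with tximport and deposited estimated counts per gene as whole numbers, not normalized. The annotation release is not given in the sources used here; coordinates and exon lengths were taken from GENCODE M21, which held 54094 of the 54347 genes.

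Counts were tested with edgeR 4.0.16 (R 4.3.3, quasi-likelihood test, TMM, filterByExpr with a minimum count of 10) on the libraries of each comparison, with Benjamini-Hochberg adjustment over all genes tested, and every adjusted p is from edgeR unless DESeq2 1.42.0 is named. The study tested with DESeq2, kept here as an alternative. Levels are CPM with TMM factors of all 16 libraries, and log2 levels used a prior count of 2. The script was tested on simulated counts. Figures were drawn with matplotlib 3.10.9.

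Libraries with the same replicate number deviated together in every comparison (correlations 0.237 to 0.711), so the numbers were taken to pair them, as a result of this check and not of the labels, and the number was added as a block in an alternative. Replicates 1 with 4 (0.195 to 0.398) and 2 with 3 (0.0586 to 0.284) also deviated together. Further alternatives were RLE size factors, no filter, a mean of at least 1 CPM, a joint fit, replicates 1 and 4 or 2 and 3 alone, a Y-linked covariate, thinning to the smallest library and leaving out each library. All members and *Spi1* are named in every comparison, with the 3 genes nearest to each member, and genes of the lists are named from those called. The members and lists were chosen with earlier results of these data known. A few genes of the lists are not reported here by name.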

Additional observations from a re-analysis of the deposited data

Results flagged for a closer look

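In groups of 4 libraries, a library was singled out when its gap to the nearest other passed Dixon's critical value for the group's range. This held in 4 of 39 groups, where chance gives about 1.9 if values are normal and groups independent. Neither holds here, as a single count among zeros is always singled out and same-numbered libraries deviated together. No excess of such libraries is read from the 4. URE GMP replicate 2 stood at 129.3 CPM for *Irf8*, with the other 3 at 16.03 to 27.1 CPM, and URE LSK replicate 2 at 9.04 CPM, with the others at 3.66 to 4.39 CPM. Without the latter the log2 fold change of *Irf8* in LSKs was -3.55, against -3.19 with it. For *Irf4*, WT LSK replicate 3 stood at 1.99 CPM, with the others at 0.644 to 0.738 CPM, and WT GMP replicate 2 at 0.0415 CPM, a single count with the others at 0.

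The difference between URE and WT in *Spi1* differed between LSKs and GMPs by an interaction of 2.642 on the log2 scale (adjusted p = 0.0218).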

How the results depend on the processing

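Over 834 alternative values of 43 fold changes of the members and *Spi1*, 791 stayed on the same side of the threshold, 747 of them with the same sign, 40 lost the call and 3 gained it, and no called value changed sign. Calls were lost on leaving out a library (24), with replicates 2 and 3 alone (11), with the Y-linked covariate (4) and, for *Irf2* in LSKs, without a filter (1). The sign changed in 44 alternatives of 9 fold changes that were not called, mostly those of *Irf3* and the interaction of *Irf9*. The replicate block gained *Irf5* between WT GMPs and LSKs and *Irf1* between URE GMPs and LSKs, and changed no other call of a member. These counts include *Irf4*, which could only come out lower between genotypes in LSKs and between WT GMPs and LSKs, and its gain with DESeq2 in LSKs is 1 of the 3.

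Between genotypes in LSKs 930 genes were called, with DESeq2 1637, with the replicate block 1433, with replicates 2 and 3 alone 386 and with the Y-linked covariate 510. In GMPs 1148 were called, and 2001, 2260, 108 and 630 under the same alternatives. With replicates 2 and 3 alone, 2507 genes were called between WT GMPs and LSKs, where the main fit called 4037. Between URE GMPs and LSKs 810 were called in place of 3133, and for the interaction 2 in place of 194. The interaction count was 674 with DESeq2 and 1047 with the replicate block. These are counts, not the same genes. Members called in LSKs numbered 3 in place of 5, and in GMPs 0 and 1 in place of 3, with replicates 2 and 3 alone and with the Y-linked covariate respectively. With replicates 2 and 3 alone 1 member was called between URE GMPs and LSKs in place of 4. With replicates 1 and 4 alone the counts were 988 genes in LSKs, 1236 in GMPs, 3033 between WT GMPs and LSKs, 4216 between URE GMPs and LSKs and 174 for the interaction, with 5, 3, 6, 4 and 0 members called. The 6 include *Irf4*, which passed the filter there only through WT LSKs and could only come out lower. Leaving out 1 library gave 565 (WT LSK replicate 2) to 961 genes and 3 to 4 members between genotypes in LSKs, 715 (URE GMP replicate 4) to 1176 genes and 1 to 2 members in GMPs, and 84 (URE GMP replicate 4) to 283 genes for the interaction, where counts of 102 to 115 were also found without WT LSK replicate 1, 2 or 4, URE LSK replicate 4 or WT GMP replicate 2 or 4. In LSKs the count was 606 without WT LSK replicate 4. The causes of these changes were not tested. Depth limits *Irf4*, at 51 counts or fewer per library.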
